A study of Rattus norvegicus with 15 samples.

Results

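The natriuretic peptide system was described in 2 tissues of Dahl salt-sensitive (SS) rats, mesenteric artery and kidney cortex, with and without a noncoding deletion on chromosome 2. Its members were taken by gene name: the precursors Nppa, Nppb and Nppc, the receptors Npr1, Npr2 and Npr3, and the proteases Corin, Furin and Mme, which are 9 of the 34357 genes with an identifier. The rule that picks them uses gene names and no measured value, though the list was drawn up with earlier results of these data known. RNA-seq of total RNA gave 15 libraries: 4 deletion and 4 wild-type arteries, and 4 deletion and 3 wild-type kidney cortices. The deleted interval spans 30.4 kb (rn7, chromosome 2, 60825801 to 60856216) and was chosen by the submitters as the rat counterpart of a human haplotype block, to ask which genes it influences. All groups share the SS background and titles that call the animals male. The labels give neither age nor diet, nor how many founder lines the deletion comes from, nor whether its carriers are homozygous. Nothing in them says that the libraries are from separate animals, so p-values measure the spread between these libraries, which may be partly technical.

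Atrial and B-type natriuretic peptides, encoded by Nppa and Nppb, are made mainly in heart muscle and bind the receptor encoded by Npr1, while C-type natriuretic peptide, encoded by Nppc, binds the receptor encoded by Npr2. Both receptors are membrane guanylyl cyclases whose product, cyclic GMP, relaxes vascular smooth muscle and, in the kidney, favours excretion of sodium and water. The receptor encoded by Npr3 lacks the cyclase domain and clears all of these peptides from the circulation, corin and furin cut the precursors to their active forms, and neprilysin, encoded by Mme, degrades the peptides.

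The members lie on 5 chromosomes of rn7. Npr3 (60865483 to 60933432, minus strand) is 9.3 kb from the deleted interval on chromosome 2, measured to its 3′ end. Its start is at the other, farther end of the gene, which is 68.0 kb long. Npr1 (175934181 to 175950118, minus strand) and Mme (147686913 to 147803808, plus strand) are on the same chromosome, far from it. Chromosome 5 carries Npr2 (57883171 to 57901590), Nppa (158429042 to 158430351) and Nppb (158416813 to 158418175), each on the plus strand, the last pair next to each other. Nppc is on chromosome 9 (87320051 to 87324251, minus strand), Corin on chromosome 14 (35680601 to 35910703, plus strand) and Furin on chromosome 1 (134348142 to 134361182, minus strand).

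The stretches just before the starts of the 3 precursor genes are shown because these genes were at or near 0 in both tissues while their receptors were not. They are RefSeq sequences of build GRCr8, read 5′ to 3′ on the strand of the gene, and capitals mark the letters TATAAA on either strand. They lie at chr5:163711934-163712183 (plus strand) for Nppa, chr5:163699758-163699954 (plus strand) for Nppb and chr9:94772187-94772436 (minus strand) for Nppc.
Nppa: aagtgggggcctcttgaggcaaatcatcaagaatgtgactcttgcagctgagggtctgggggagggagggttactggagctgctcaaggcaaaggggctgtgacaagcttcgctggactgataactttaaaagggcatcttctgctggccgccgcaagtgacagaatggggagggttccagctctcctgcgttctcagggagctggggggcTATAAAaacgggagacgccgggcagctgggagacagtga
Nppb: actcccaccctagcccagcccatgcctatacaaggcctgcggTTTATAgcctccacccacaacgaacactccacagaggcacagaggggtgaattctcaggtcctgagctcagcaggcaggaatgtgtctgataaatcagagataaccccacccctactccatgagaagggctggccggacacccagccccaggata
Nppc: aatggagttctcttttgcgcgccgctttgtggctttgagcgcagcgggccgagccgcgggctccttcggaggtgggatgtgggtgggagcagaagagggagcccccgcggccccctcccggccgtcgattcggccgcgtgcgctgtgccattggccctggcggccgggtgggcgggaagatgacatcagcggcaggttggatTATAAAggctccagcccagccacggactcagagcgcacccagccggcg
The motif begins 39 bases before the start of Nppa and 48 bases before that of Nppc. The Nppb stretch ends before the outermost start of its gene model, and its match, on the minus strand, begins 208 bases before the start used by the table. Among 33469 RefSeq upstream windows of 250 bases, 12.9% hold TATAAA on either strand, and 9.86% hold it in the first 197 bases. The RefSeq table matched 7 of the 9 members by symbol, all but Npr2 and Furin. A match is a description of these letters and no measure of use of the promoter.

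The tissue labels were checked against marker genes. All 5 smooth muscle markers were higher in artery and all 5 proximal tubule markers were higher in kidney (limma, Benjamini-Hochberg adjusted p under 0.05). The FPKM of the genes summed to 285679 to 433477 in arteries and 376270 to 459847 in kidneys, and the depth of sequencing is unknown. The library labelled kidney wild-type 3 had 81.1 FPKM of Xist, against at most 1.30 in the others, and Eif2s3y was listed at 0 there, against 24.1 to 39.6 FPKM in the others, which goes against its male title. The kidney differences of the members between genotypes are therefore also given without it. Haemoglobin genes made up 33% of the summed FPKM in artery wild-type 4, against 1.61% to 12% in the other arteries.

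Transcripts of the ligands were at or near 0. Nppb was listed at 0 in all 15 libraries. Nppa was listed at 0 in all 4 deletion arteries, against 0.0890 FPKM in wild-type artery 1 and 0 in the other wild-type arteries. In kidney, Nppa had 0.0662, 0, 0.0318 and 0.0874 FPKM in the deletion libraries, against 0.0312, 0 and 0 FPKM in the wild-type libraries. These values are at the low end of the table, where a few reads may decide whether a gene is listed at 0. Nppc had 0, 0.177, 0.0819 and 0.0948 FPKM in deletion arteries, against 0, 0, 0.0341 and 0 FPKM in wild-type arteries. Its kidney values were 0, 0.0871, 0 and 0 FPKM in deletion libraries, against 0.0601, 0.127 and 0 FPKM in wild-type libraries. None of the 3 ligand genes reached the mean of 0.5 FPKM needed for a test in either tissue. The 5 markers of cardiac muscle summed to 1.07 to 2.24 FPKM in arteries and 0.153 to 0.577 FPKM in kidneys.

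The receptors were all measured well above that level, and more highly in artery. Npr1, the receptor for atrial and B-type peptides, had 10.6, 13.6, 10.01 and 12.9 FPKM in deletion arteries, against 11.3, 12.2, 11.97 and 9.58 FPKM in wild-type arteries. The groups overlap almost wholly. The lowest library was wild-type artery 4, the one with most haemoglobin, and the part of blood in that value was not tested. In kidney, Npr1 had 4.10, 6.27, 3.72 and 4.10 FPKM in deletion libraries, against 4.66, 4.797 and 4.49 FPKM in wild-type libraries. Deletion kidney 2 was the highest, and the other deletion kidneys lay below all wild-type ones. Over both genotypes Npr1 averaged 11.5 ± 1.40 FPKM in artery (SD, n = 8) and 4.59 ± 0.829 FPKM in kidney (SD, n = 7).

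Npr2, the receptor for C-type peptide, had 14.7, 11.6, 13.6 and 18.2 FPKM in deletion arteries, against 13.5, 17.6, 11.7 and 10.6 FPKM in wild-type arteries. Deletion artery 4 and wild-type artery 2 were the highest and wild-type artery 4 again the lowest, and the groups overlap. In kidney it had 2.28, 3.04, 2.003 and 2.46 FPKM in deletion libraries, against 2.68, 2.60 and 2.202 FPKM in wild-type libraries, and the groups overlap. Its mean was 13.9 ± 2.78 FPKM in artery (SD, n = 8) and 2.47 ± 0.345 FPKM in kidney (SD, n = 7).

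Npr3, the clearance receptor and the member nearest the deletion, had 28.4, 42.6, 26.5 and 32.0 FPKM in deletion arteries, against 30.7, 27.8, 19.1 and 22.3 FPKM in wild-type arteries. The 2 highest arteries were deletion libraries and the 2 lowest wild-type ones, with overlap between. In kidney it had 5.05, 10.7, 4.39 and 4.91 FPKM in deletion libraries, against 8.52, 5.01 and 5.69 FPKM in wild-type libraries. Deletion kidney 2 and wild-type kidney 1 stand above the other 5 kidneys. Npr3 averaged 28.7 ± 7.04 FPKM in artery (SD, n = 8) and 6.33 ± 2.38 FPKM in kidney (SD, n = 7).

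Corin, the serine protease that activates the atrial precursor, had 1.99, 1.81, 1.71 and 1.32 FPKM in deletion arteries, against 0.857, 1.17, 0.957 and 1.58 FPKM in wild-type arteries. The 3 highest arteries carried the deletion, and only wild-type artery 4 reached above the lowest deletion library. In kidney Corin lay between 0.0179 and 0.0426 FPKM in deletion libraries, against 0.00871 to 0.0513 FPKM in wild-type libraries, below the level for a test. Its mean FPKM in artery was 49.2 times that in kidney, a ratio that rests on kidney values near 0.

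Furin, the proprotein convertase, had 16.2, 16.4, 15.7 and 20.7 FPKM in deletion arteries, against 15.6, 18.3, 13.1 and 28.6 FPKM in wild-type arteries. Wild-type artery 4, the library with most haemoglobin, was the highest, and the part of blood in that value was not tested. In kidney Furin had 54.8, 47.2, 66.1 and 50.4 FPKM in deletion libraries, against 50.5, 51.0 and 49.1 FPKM in wild-type libraries. The wild-type kidneys lie within the range of the deletion kidneys. Mme, the degrading enzyme, had 36.0, 44.6, 44.2 and 26.8 FPKM in deletion arteries, against 41.0, 22.4, 29.4 and 30.5 FPKM in wild-type arteries. Its kidney values were 142, 81.3, 152 and 96.6 FPKM in deletion libraries, against 153, 70.5 and 105 FPKM in wild-type libraries. The groups of both tissues overlap, and kidney Mme spans more than 70 FPKM within each genotype.

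**Figure D1:**
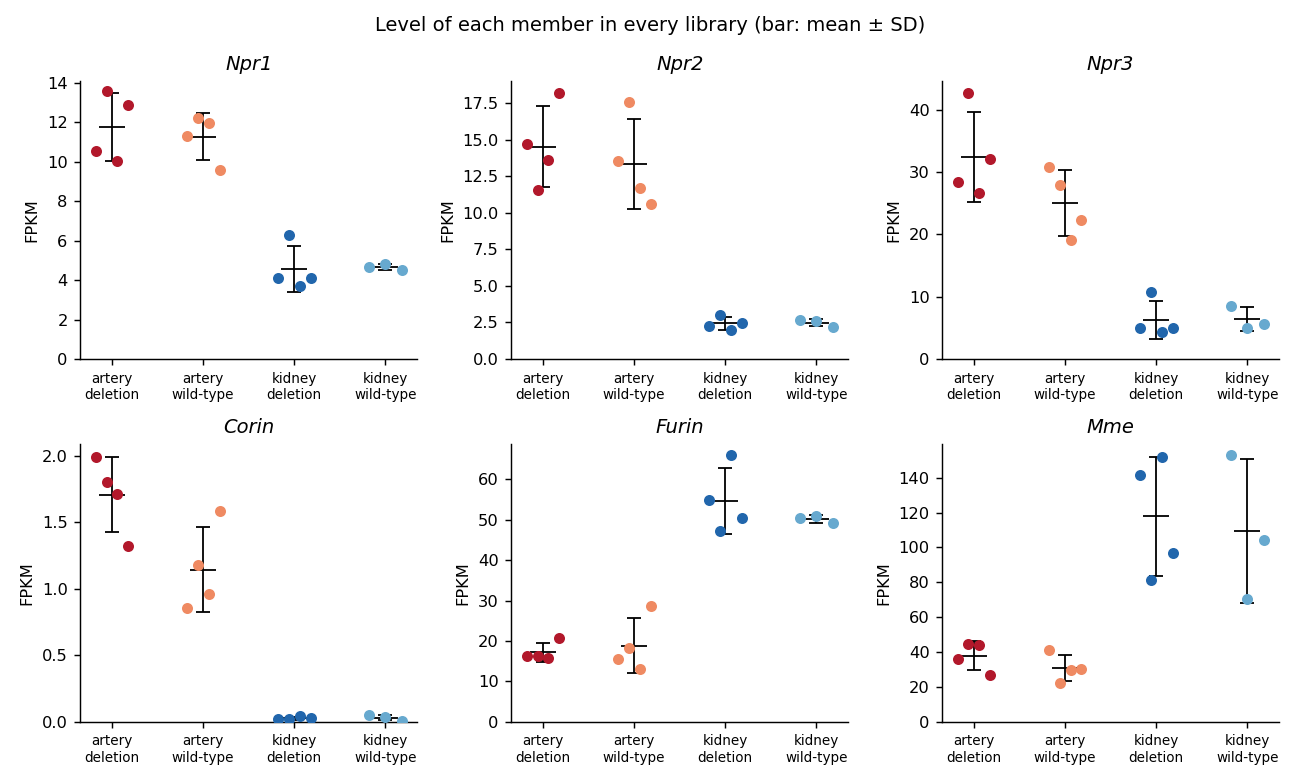
FPKM of the 6 members tested, by tissue and genotype, 1 point per library, with the group mean and SD. Npr1, Npr2, Npr3 and Corin lie higher in artery and Furin and Mme higher in kidney, with no overlap between tissues, while deletion and wild-type libraries overlap in each tissue.

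Ordered by FPKM, which is scaled by gene length, Mme led in both tissues. In deletion arteries the order was Mme, Npr3, Furin, Npr2, Npr1 and Corin. Mme and Npr3 overlap there, as do Furin and Npr2, and Npr2 and Npr1, while Npr3 lies wholly above Furin and Npr1 above Corin. In wild-type arteries the order of means was the same and each neighbour overlaps the next down to Npr1, which lies wholly above Corin. In deletion and wild-type kidneys the order was Mme, Furin, Npr3, Npr1 and Npr2, and the neighbours Npr3 and Npr1 overlap in the deletion kidneys. Mme exceeded 91.9% of the tested genes in artery and 96.9% in kidney, and Npr3 exceeded 89.7% in artery and 49.6% in kidney.

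No member passed the test between deletion and wild-type libraries. In artery 6 of the 9 members were tested and 0 were called by limma at a Benjamini-Hochberg adjusted p under 0.05, where 0% of all 16470 genes tested were called and 5.24% had an unadjusted p under 0.05. The ranges of deletion and wild-type arteries overlap for all 6, where 3.25% of all genes did not overlap. On the log2(FPKM + 0.5) scale, which understates changes of low genes, Corin had the smallest p of the 6, with a difference of 0.44 (SE 0.19), a fold of 1.35 with a 95% confidence interval of 1.01 to 1.81. Its unadjusted limma p was 0.0416, rank 700 of 16470, and its adjusted p was 0.893. Npr3 differed by 0.37 (SE 0.18), a fold of 1.29 with an interval of 0.971 to 1.72 (limma, adjusted p = 0.893). Without deletion artery 2 the Npr3 difference was 0.23. Mme differed by 0.30 (SE 0.21), with an interval of 0.888 to 1.70 for the fold (limma, adjusted p = 0.893). Npr1, Npr2 and Furin had differences of 0.05, 0.12 and -0.08, with SE of 0.12, 0.18 and 0.21. The median over the 6 members was 0.21, against 0.0436 over all genes tested, and these medians were not compared by a test. Fibroblast, adipocyte, smooth muscle, mesothelial and B lymphocyte markers also varied between arteries. The mesothelial sum ran from 5.28 to 143 FPKM in deletion libraries and 3.65 to 31.3 FPKM in wild-type libraries. Deletion artery 2, highest in Npr3, was also the artery highest in mesothelial and adipocyte sums, 143 and 1686 FPKM. The B lymphocyte sum was 89.9 FPKM there and 121 FPKM in wild-type artery 3, the lowest in Npr3. It was 3.47 to 13.9 FPKM in the other arteries. The part of these cell types in the differences was not tested. In bulk tissue, fewer cells of a type and less RNA per cell cannot be told apart.

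In kidney 5 members were tested and 0 were called, where 0% of all 15444 genes were called and 1.41% had an unadjusted p under 0.05. All 5 overlap between genotypes, where 2.55% of all genes did not. The Npr3 difference was -0.08 (SE 0.29), with an interval of 0.598 to 1.49 for the fold (limma, adjusted p = 0.999). For Mme it was 0.13 (SE 0.30), with an interval of 0.685 to 1.75, and for Furin 0.11 (SE 0.15), with an interval of 0.856 to 1.36. Npr1 and Npr2 differed by -0.05 (SE 0.18) and -0.03 (SE 0.19). Without wild-type kidney 3 the values were -0.15 for Npr3, 0.13 for Mme, 0.09 for Furin, -0.08 for Npr1 and -0.10 for Npr2. With all libraries, the median over the 5 members was -0.03, against 0.0437 over all genes tested. The intervals of all 5 include a fold of 1, so that neither a change of either sign nor its absence is shown.

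**Figure D2:**
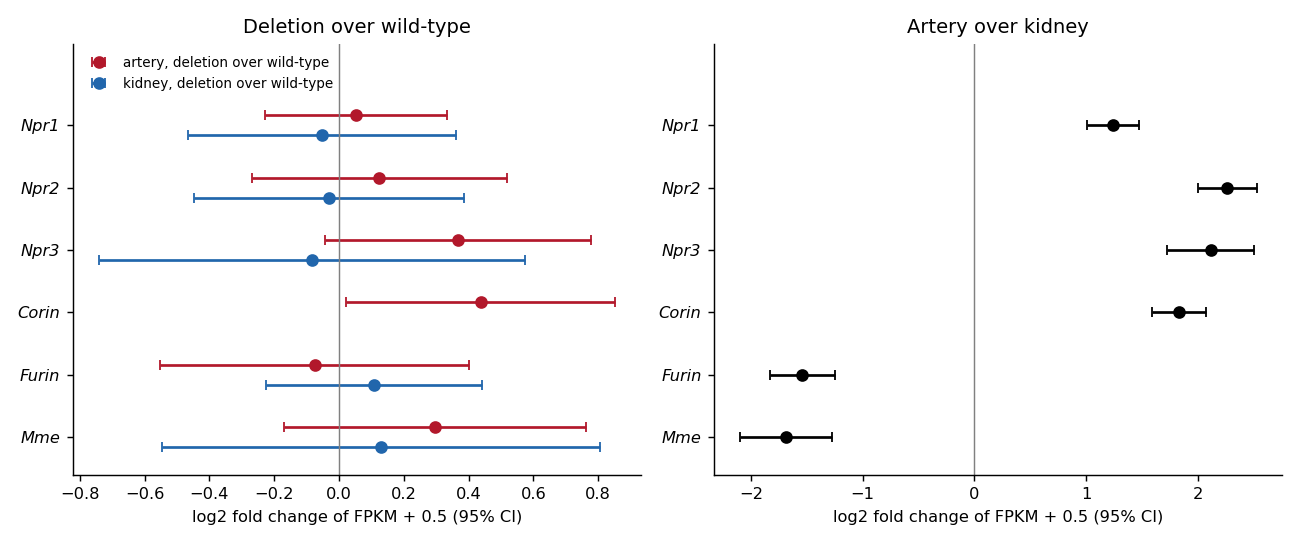
Log2 fold change of the tested members, deletion over wild-type in each tissue and artery over kidney, with 95% confidence intervals from limma. The intervals of the deletion contrast include 0 except for Corin in artery (0.44, adjusted p = 0.893), and those of the tissue contrast all lie away from 0.

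The difference of the deletion effect between artery and kidney was 0.45 (SE 0.37) for Npr3 and 0.45 (SE 0.23) for Corin (limma interaction, adjusted p = 0.947 for each), and 0.51 and 0.48 without wild-type kidney 3. Of 17842 genes tested for this difference, 0% were called and 4.3% had an unadjusted p under 0.05. The other 4 members had interaction estimates between -0.18 for Furin and 0.17 for Mme. Corin entered this test only through its level in artery.

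The tissues, in contrast, differed in each of the 5 members that reached the filter of 0.5 FPKM in both. Npr2 was higher in artery by 2.27 (SE 0.12) on the log2 scale, a fold of 4.81 with an interval of 4.01 to 5.77 (limma, adjusted p = 1.13e-10). Npr3 was higher by 2.12 (SE 0.18), a fold of 4.34 with an interval of 3.32 to 5.69 (limma, adjusted p = 3.24e-08). The difference for Npr1 was smaller, at 1.24 (SE 0.11), a fold of 2.36 with an interval of 2.01 to 2.77 (limma, adjusted p = 3.68e-08). Corin, with a log2 difference of 1.83 (SE 0.11), reached the filter only through artery, so its direction here was fixed by the filter and is a description. The peptide-degrading Mme was lower in artery, with a log2 difference of -1.69 (SE 0.19; limma, adjusted p = 8.67e-07), as was Furin with -1.54 (SE 0.14; limma, adjusted p = 4.41e-08). So, of the 5 members at the filter in both tissues, 3 were higher and 2 lower in artery, where 74% of the 14072 genes at the filter in both were called, 38.8% higher and 35.2% lower. With Corin, 6 of 6 were called and none overlaps between tissues, where 77.4% of all 17842 genes tested were called, 42.4% higher and 35% lower in artery, and 49.9% did not overlap. Under median-of-ratios scaling 6737 genes were called higher and 7090 lower, against 7563 higher and 6242 lower as deposited. A call between these tissues is thus the common case. The artery and kidney groups differ in organ as well as in any handling that differed with it, and these cannot be told apart. They also differ in cell types. All 5 adipocyte, all 5 fibroblast and all 5 endothelial markers were higher in artery. All 5 loop and distal tubule and all 5 collecting duct markers were higher in kidney. The adipocyte sum was 940 to 1686 FPKM in arteries, against 9.90 to 21.4 FPKM in kidneys. The part of these cell types in the differences of the members was not tested.

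The receptors stood in different proportions in the 2 tissues. Npr1 made up 21.5 ± 2.77% of the summed receptor FPKM in artery (SD, n = 8) and 34.9 ± 3.29% in kidney (SD, n = 7), with no overlap. Npr1 stood to Npr2 at a ratio of 0.849 ± 0.174 in artery and 1.86 ± 0.147 in kidney, so that Npr2 was the more abundant cyclase transcript on average in artery and Npr1 in every kidney. Npr3 took the largest share of the 3 in every library, at 54.9 ± 5.42% in deletion arteries and 50.2 ± 4.64% in wild-type arteries (SD, n = 4 each). In kidney the Npr3 share was 46.0 ± 5.09% in deletion libraries (SD, n = 4) and 46.7 ± 6.71% in wild-type libraries (SD, n = 3). The ratio of Npr3 to Npr1, clearance receptor to cyclase, was 2.70, 3.14, 2.65 and 2.49 in deletion arteries, against 2.71, 2.28, 1.60 and 2.33 in wild-type arteries. Wild-type artery 1 lies among the deletion arteries. In kidney the ratio was 1.23, 1.71, 1.18 and 1.20 in deletion libraries, against 1.83, 1.04 and 1.27 in wild-type libraries. The sum of the 3 receptors was 58.7 ± 8.16 FPKM in deletion arteries and 49.6 ± 8.12 FPKM in wild-type arteries, and 13.3 ± 4.57 FPKM in deletion kidneys and 13.6 ± 1.998 FPKM in wild-type kidneys. These shares and ratios are descriptions and were not tested.

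**Figure D3:**
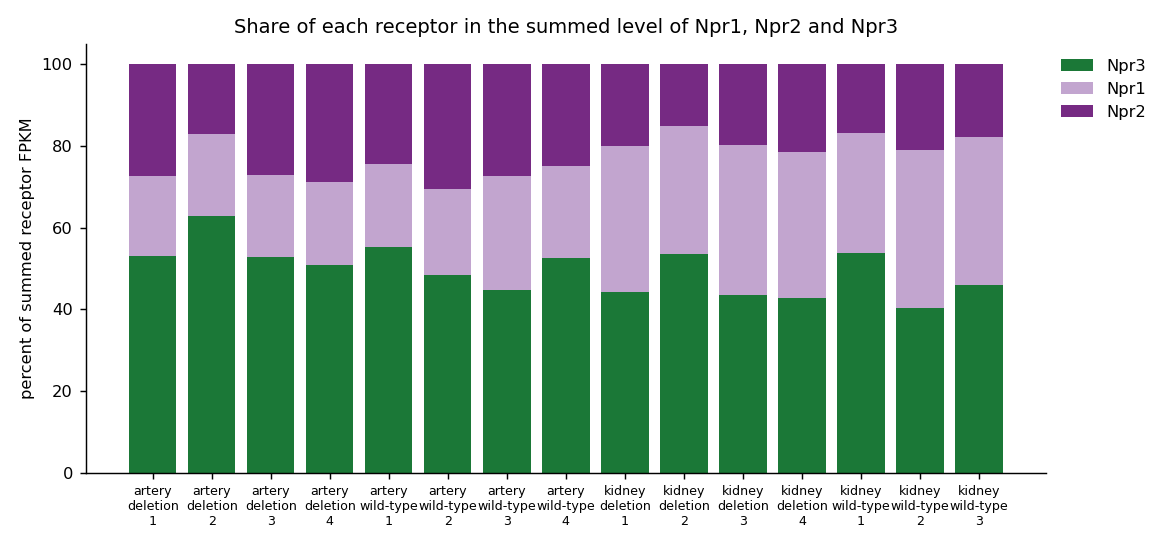
Share of Npr1, Npr2 and Npr3 in their summed FPKM, in percent, 1 bar per library. Npr1 takes 34.9% on average in kidney and 21.5% in artery, while Npr3 takes the largest share in all 15 libraries.

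In kidney, the libraries highest in Npr3 were also the highest in the sums of podocyte and endothelial markers. The summed FPKM of 4 podocyte markers was 74.1, 159, 73.1 and 69.1 in deletion kidneys, against 128, 72.4 and 79.0 in wild-type kidneys. Deletion kidney 2 and wild-type kidney 1, the libraries highest in Npr3 at 10.7 and 8.52 FPKM, were also the highest in this sum. Nphs1, which encodes nephrin, had 6.80, 14.1, 6.62 and 6.41 FPKM in deletion kidneys, against 11.3, 5.94 and 8.49 FPKM in wild-type kidneys. The podocyte sum is not particular to kidney, as it was 46.4 to 80.7 FPKM in arteries. Of its genes, Podxl and Synpo were not called between tissues (limma, adjusted p = 0.0929 and 0.154), while Nphs1 and Ptpro were lower in artery. The sum of 5 endothelial markers was 57.6, 77.8, 52.5 and 56.0 FPKM in deletion kidneys, against 74.4, 63.7 and 59.1 FPKM in wild-type kidneys, highest in the same libraries. Deletion kidney 2 was also highest in Npr1 and Npr2 and in the sum of smooth muscle markers, 65.2 FPKM against 32.5 to 46.2 FPKM in the others, and had the lowest sum of proximal tubule markers, 1657 FPKM. The part of cell composition in these receptor values was not tested. Leaving out these 2 kidneys, a choice made after their values were seen, gave kidney differences between deletion and wild-type of -0.15 for Npr3, -0.20 for Npr1 and -0.08 for Npr2, and of 0.57 for Mme (limma, unadjusted p = 0.0501, adjusted p = 0.683).

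**Figure D4:**
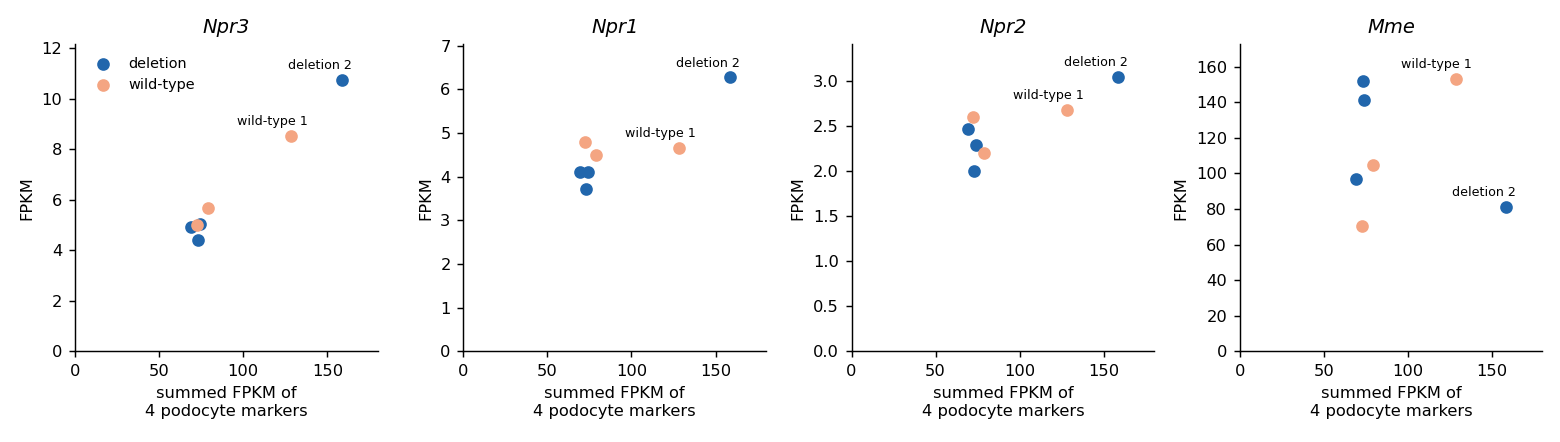
FPKM of Npr3, Npr1, Npr2 and Mme in each kidney library against the summed FPKM of 4 podocyte markers, coloured by genotype. Deletion 2 (sum 159) and wild-type 1 (sum 128) have the highest Npr3, 10.7 and 8.52 FPKM, and the other 5 kidneys lie between 4.39 and 5.69 FPKM.

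Genes whose levels varied most like those of the receptors were ranked by Pearson's correlation of the deviations from the 4 group means, over 15 libraries and 14072 genes. Npr3 varied most like Adamts5, which encodes a proteoglycan-cleaving protease, with r = 0.95 (Spearman 0.84), and r = 0.91 without deletion kidney 2 and wild-type kidney 1, the libraries farthest from the median. Zfp423, which encodes a zinc finger protein, and LOC120093745 followed, each with r = 0.93. Npr1 was most like Pik3r6, a regulatory subunit of a phosphoinositide kinase, with r = 0.93, followed by Rgma and Zfp110, each with r = 0.92. Npr2 was most like Tle1, a transcriptional corepressor, with r = 0.97, followed by LOC103693236 with r = 0.94 and Pkn3 with r = 0.93. Among the members themselves, Npr1 and Npr3 had r = 0.76, which fell to 0.50 without the 2 farthest libraries. These correlations share libraries, depth and tissue composition, and carry no p.

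Other genes of the pathway were taken from 3 lists. Of 8 other guanylyl cyclase receptors and their ligands, 2 were tested between the tissues. Both reached the filter only through kidney, which fixed their direction, so their values are a description. Guca2a, which encodes guanylin, averaged 0.466 ± 0.510 FPKM in artery (SD, n = 8) and 2.60 ± 1.26 FPKM in kidney (SD, n = 7), a log2 difference of -1.71. Wild-type artery 1 had 1.70 FPKM and the other 7 arteries 0.163 to 0.533 FPKM, with a mean of 0.290 ± 0.119 FPKM (SD, n = 7), and without that library the difference was -1.91. Without wild-type kidney 3, which had 4.97 FPKM, it was -1.51. Guca2b, which encodes uroguanylin, averaged 0.0715 ± 0.107 FPKM in artery and 0.975 ± 0.478 FPKM in kidney, a log2 difference of -1.37. Of 14 other peptidases and convertases, 12 were tested, of which 8 were higher and 4 lower in artery, where 77.4% of all genes were called. Of the 8 at the filter in both tissues 5 were higher and 3 lower, where 74% of such genes were called. The 3 include Mep1a, which reached the filter in artery only through wild-type artery 1. The brush-border enzymes led in size. Mep1a, a meprin subunit, reached 3.77 FPKM in wild-type artery 1 and at most 0.468 FPKM in the other arteries, against 59.2 to 190 FPKM in kidneys. Its log2 difference was -7.22, and -7.58 without wild-type artery 1. Without that library the filter fixed its direction, so these values are a description. Wild-type artery 1 also had the highest sum of intestinal epithelium markers among the arteries, 25.1 FPKM against at most 2.39, and their part in its Mep1a and Guca2a values was not tested. Mep1b, the other meprin subunit, which reached the filter only through kidney, differed by -5.70 and Dpp4, a dipeptidyl peptidase, by -4.58. Dpp4 averaged 5.16 ± 1.73 FPKM in artery (SD, n = 8) and 135 ± 35.4 FPKM in kidney (SD, n = 7).

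The third list held 25 genes of cyclic GMP signalling. Besides genes downstream of cyclic GMP it includes subunits of soluble guanylyl cyclase, which makes it, and the G protein subunits Gnai1, Gnai2 and Gnai3. Of the 25 genes, 24 were in the table and tested. In artery 17 were higher and 4 lower, where 77.4% of all genes were called. The other 3, Pde1a, Pde1c and Vasp, did not pass the test. Of the 20 at the filter in both tissues, 16 were higher and 1 lower in artery, where 38.8% of such genes were higher and 35.2% lower. Pln, which encodes the calcium pump regulator phospholamban, averaged 70.6 ± 21.8 FPKM in artery (SD, n = 8) and 1.465 ± 0.763 FPKM in kidney (SD, n = 7), a log2 difference of 5.20 (limma, adjusted p = 1.57e-11). Irag1, a substrate of cyclic GMP-dependent protein kinase, averaged 30.2 ± 6.83 FPKM in artery and 2.79 ± 1.06 FPKM in kidney, a log2 difference of 3.25. Gucy1b2, a subunit of soluble guanylyl cyclase, went the other way, with 0.372 ± 0.0788 FPKM in artery and 17.5 ± 8.35 FPKM in kidney, a log2 difference of -4.10 whose direction was fixed by the filter, which it reached only through kidney. Between deletion and wild-type libraries limma called 0 genes of any of the 3 lists in either tissue. Those tested in artery numbered 11 peptidases and 21 cyclic GMP signalling genes. In kidney they numbered 2 receptor or ligand genes, 9 peptidases and 23 cyclic GMP signalling genes.

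**Figure D5:**
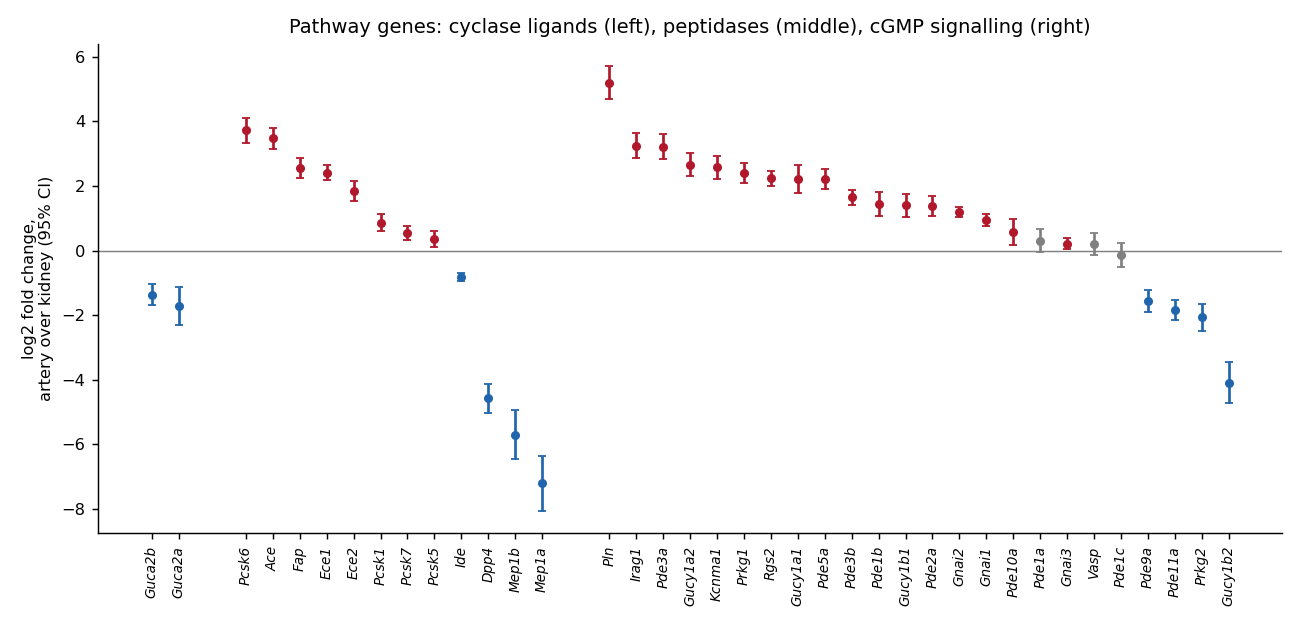
Log2 fold change, artery over kidney, of the tested pathway genes, with 95% confidence intervals from limma. Red genes were higher in artery, blue ones lower and grey ones not called, and Pln (5.20) and Mep1a (-7.22) mark the ends of the scale.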

How the data were processed

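Total RNA of mesenteric artery and kidney cortex was sequenced, per the labels. The values used are FPKM (fragments scaled by gene length and library size) in the table deposited by the authors, 1 column per library. The only other column of values (1), a coverage signal of no stated sample deposited by the authors, was not used. The submitters' processing notes name HISAT2 2.2.1, Trim Galore 0.6.2 and DESeq2 1.46.0, and rn7 as the build. Which tool computed FPKM is not given in the sources used. The depth of sequencing is unknown, so no counting interval is given. Of 40694 table entries, 6337 carried no identifier, and 34357 were kept.

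Values were taken as log2(FPKM + 0.5). A gene was tested if its mean reached 0.5 FPKM in the tissue (in at least 1 tissue, for comparisons across tissues). Two-sided tests used limma 3.58.1 under R 4.3.3, with robust, trended eBayes moderation of the lmFit estimates, with Benjamini-Hochberg adjustment over all genes tested and a threshold of 0.05. Each tissue was fitted alone, and tissue and interaction contrasts used all 15 libraries, without a replicate block. The contrasts across tissues treated all libraries as independent and used a common variance for each gene over both tissues. The labels do not say whether an artery and a kidney came from the same rat. The procedure was tested on simulated data with independent noise for each gene. The planted changes were larger than the differences seen for Corin and Npr3 in artery. The simulated libraries held no shared shifts of cell composition or blood, so the check does not cover these. Beyond the members, the text names the 3 tested genes of each pathway list with the largest absolute log2 difference between tissues, and the 3 genes most alike to each receptor. A marker gene of the kidney is not reported here and was left out of its summed level. Members and lists were chosen with earlier results of these data known. Alternatives changed the pseudocount, filter, scaling, weights, fit and libraries.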

Additional observations from a re-analysis of the deposited data

Results flagged for a closer look

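Of 29 groups of library values examined, 9 held 1 library far from the others of its group, where chance marks about 1 in 20 groups of independent, untied values. That rate does not apply to 3 of the 9, in which the other libraries are tied at 0, and the ratios share Npr3 with its own level. The wild-type kidneys (n = 3) were too few for this rule and were not examined. Groups with equal values throughout were also left out. In the deletion kidneys, Npr1 was 6.27 FPKM in library 2, against 3.72 to 4.10 FPKM in the others. Npr3 was 10.7 FPKM in the same library, against 4.39 to 5.05 FPKM in the others. The ratio of Npr3 to Npr1 was 1.71 there, against 1.18 to 1.23, and the ratio of Npr3 to Npr2 was 3.53, against 1.99 to 2.21. Nppc was 0.0871 FPKM there and listed at 0 in the other deletion kidneys. In the deletion arteries, the ratio of Npr3 to Npr2 was 3.68 in library 2, against 1.76 to 1.95 in the others, and Furin was 20.7 FPKM in library 4, against 15.7 to 16.4 FPKM in the others. In the wild-type arteries, Nppa was 0.0890 FPKM in library 1 and Nppc was 0.0341 FPKM in library 3, and each was listed at 0 in the others.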

How the results depend on the processing

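The tissue differences of the 6 tested members kept their direction and their call under every alternative run. The size for Corin depended on the pseudocount, with a log2 difference of 3.52 at 0.1 and 1.22 at 1, against 1.83 at 0.5. Scaling by the median of ratios moved the median artery-over-kidney difference of all genes by -0.129. The genes called between deletion and wild-type arteries numbered 1 with a pseudocount of 0.1 (LOC120094666) and 0 to 1 when each library was left out (LOC120096562 without deletion artery 3, LOC120094666 without wild-type artery 2). In kidney they numbered 282 with array weights, under which wild-type kidney 2 had a weight of 18.2 against 0.268 to 1.86 for the others, 1 in the joint fit over both tissues (LOC120093316), 1 without the 2 kidneys of highest podocyte sum (LOC120095881), and 0 to 1 when each library was left out (LOC120095881 without wild-type kidney 1). Array weights also called 1 gene of each pathway list in kidney. Of the other cyclase receptors and ligands, 5 were called between tissues with no filter and 1 at a filter of 1 FPKM, against 2 as reported. By limma as reported, 863 genes in artery, 217 in kidney and 768 for the interaction had an unadjusted p under 0.05. Array weights gave a kidney difference of 0.0142 for Npr3, of 0.77 for Mme (limma, adjusted p = 0.0564) and an interaction of -0.52 for Mme. The Mme interaction was -0.27 without the 2 kidneys of highest podocyte sum. Leaving out each library in turn gave ranges in artery of -0.0197 to 0.12 for Npr1, 0.0132 (without deletion 4) to 0.26 (without wild-type 2) for Npr2, 0.23 to 0.47 for Npr3, 0.35 to 0.56 for Corin, -0.23 to 0.14 for Furin and 0.16 (without wild-type 2) to 0.45 (without deletion 4) for Mme. In kidney the ranges were -0.20 to 0.024 for Npr1, -0.12 to 0.0444 for Npr2, -0.36 to 0.13 for Npr3, 0.014 (without deletion 3) to 0.17 for Furin and -0.15 to 0.41 for Mme, and for the interaction -0.34 to 0.0303 for Furin and -0.11 to 0.45 for Mme. The sign turned in artery for Npr1 without deletion 2 (-0.0176) or wild-type 4 and for Furin without wild-type 4. In kidney it turned without deletion 3 for Npr1, Npr2, Npr3 (0.0439) and Mme (-0.00679), without wild-type 1 for Npr2 (0.0144) and Npr3, and without wild-type 2 for Mme. For the interaction it turned for Furin without wild-type artery 4 and for Mme without wild-type kidney 1. The cause of these changes of sign was not tested. Same-numbered deletion and wild-type libraries had correlations of 0.32, -0.33, 0.24 and 0.30 in artery and 0.07, -0.01 and 0.28 in kidney. Same-numbered artery and kidney libraries had -0.04, -0.08, 0.23 and -0.03 with the deletion and 0.14, -0.07 and 0.02 in wild-type. Libraries of different numbers were not compared, so these values do not show whether replicate numbers pair the samples. With a replicate block 0 genes were called in either tissue, and the Npr3 difference in artery was 0.37 (limma, unadjusted p = 0.0364, adjusted p = 0.889). With 3 or 4 libraries a group and unknown depth, differences of the size seen for Corin and Npr3 in artery were not resolved.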

Other observations

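Guca2b, which encodes uroguanylin, a peptide of gut and kidney that acts through another guanylyl cyclase receptor, was singled out after its values were seen. It averaged 0.688 ± 0.157 FPKM in deletion kidneys (SD, n = 4) and 1.36 ± 0.513 FPKM in wild-type kidneys (SD, n = 3), a log2 difference of -0.62 (limma, unadjusted p = 0.0318, adjusted p = 0.999). The deletion kidneys lay between 0.496 and 0.872 FPKM, against 0.808, 1.44 and 1.82 FPKM in the wild-type kidneys, so the groups overlap. The last of these is wild-type kidney 3, whose sex-linked genes go against its title, and without it the difference was -0.43 (limma, unadjusted p = 0.13), an alternative added after the values were seen.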
